A study of Homo sapiens with 12 samples.

Results

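HIF1AN, HIF1A, EPAS1, ARNT, EGLN1, EGLN2, EGLN3, VHL and CITED2 encode core parts of the machinery by which cells sense oxygen through hypoxia-inducible factor (HIF). All probes of these 9 genes were taken by the array's platform annotation, and a probe was kept where its detection p was under 0.01 on 2 or more of 12 arrays. This left 11 of 14 probes, for 6 of the 9 genes, among 19161 kept of 47323 probes on the array. LNCaP cells, an androgen-responsive line from a lymph node metastasis of a human prostate carcinoma, had received, at 20 nM, either a pre-miR construct for miR-135b, a small regulatory RNA, or a scrambled pre-miR sold as a negative control. RNA was taken after 12, 24 or 36 h, with 2 arrays for each treatment and time, labelled as biological repeats 1 and 2. All groups were grown under the provider's normal conditions, and the labels name no low-oxygen arm and no stable clone. The labels do not say whether repeats came from separate passages, so p-values measure the spread between these arrays.

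HIF is a pair of an alpha subunit, such as HIF1A or EPAS1, with the constant partner ARNT. In the presence of oxygen the prolyl hydroxylases EGLN1, EGLN2 and EGLN3 modify the alpha subunit, VHL then recognises it, and it is degraded. HIF1AN, also called factor inhibiting HIF, is an asparagine hydroxylase that modifies the activation domain of the alpha subunit and so blocks its contact with the coactivators EP300 and CREBBP, while CITED2 competes for the same coactivators. Much of this control acts on protein, which the arrays do not read. HIF1AN has been reported elsewhere as a direct target of miR-135b.

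The microRNA sequences are shown because pairing of bases 2 to 8, the seed, with a messenger RNA is the usual basis of microRNA targeting. They come from RefSeq on build GRCh38.p14, are written 5′ to 3′, and have the seed in capitals. The labels name the precursor but not the arm it was made to yield, so both arms of miR-135b are given, with the close relative miR-135a beside them.
hsa-miR-135b-5p: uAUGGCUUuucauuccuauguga
hsa-miR-135b-3p: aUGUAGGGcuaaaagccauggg
hsa-miR-135a-5p: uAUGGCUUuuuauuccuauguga
The 5p arm of miR-135b lies at chr1:205448361-205448383 and the 3p arm at chr1:205448323-205448344, both on the minus strand. The 5p arm and miR-135a-5p, listed at chr3:52294270-52294292 on the minus strand, share the seed AUGGCUU and differ by 1 change, C11U, counted from 1 at the 5′ end of miR-135b-5p. Of 2370 mature names in the table, 2 carried this seed. A messenger RNA that pairs with the whole seed holds AAGCCAU. The 3′ ends of the HIF genes were not analysed here, so no target site is shown for HIF1AN.

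Detection counts and correlations were of similar size on all arrays. Between 15967 and 17856 probes were detected per array, repeats of a group correlated at r of 0.979 to 0.989 over the kept probes, and the median SD between repeats was 0.131 to 0.177 on the log2 scale. The probe annotated to the microRNA's own gene, MIR135B, was detected on 1 of 12 arrays. It was not taken as a reading of the transfected construct, so transfection could not be checked from these data. Of 11 luminal prostate markers 9 had kept probes, all detected on 12 arrays, KLK3, KLK2 and FOLH1 among them. The leukocyte markers PTPRC, CD3E and LYZ, the basal markers KRT5 and KRT14, the fibroblast markers DCN, LUM and COL3A1 and the neuroendocrine markers CHGA, CHGB and SYP were detected on no array. Other genes of those lists were detected. Of the 6 leukocyte markers CD68 had probes detected on 12, 11 and 4 arrays and CD14 one detected on 2. Of the 4 basal markers LAMB3 was detected on 2 arrays. Of the 6 fibroblast markers COL1A1 was detected on 12 arrays and FBLN1 on 11, and of the 6 neuroendocrine markers ENO2 on 12.

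HIF1AN messenger RNA was lower in miR-135b cells at each time. Its probe, ILMN_1681812, was detected on 12 of 12 arrays. The normalized log2 signals of repeats 1 and 2 were 6.88 and 6.62 in miR-135b cells at 12 h, against 7.64 and 7.50 in scrambled cells. At 24 h they were 6.85 and 6.97 in miR-135b cells and 7.65 and 7.89 in scrambled cells. At 36 h they were 6.29 and 6.73 in miR-135b cells and 7.37 and 7.87 in scrambled cells. The 6 miR-135b arrays lay below the 6 scrambled arrays without overlap, with a gap of 0.40 between the highest miR-135b array and the lowest scrambled array. Of all kept probes, 1.44% were separated in this direction. At 36 h repeat 1 was lower than repeat 2 in both treatments.

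On the deposited intensity scale, before any background correction, the HIF1AN probe read 202 and 178 in miR-135b cells at 12 h, against 300.3 and 246 in scrambled cells. It read 198 and 194 in miR-135b cells at 24 h, against 279 and 287 in scrambled cells, and 159 and 179 in miR-135b cells at 36 h, against 256 and 297 in scrambled cells. The ratio of miR-135b to scrambled intensity within a repeat was thus between 0.603 and 0.722 in the 6 pairs.

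**Figure D1:**
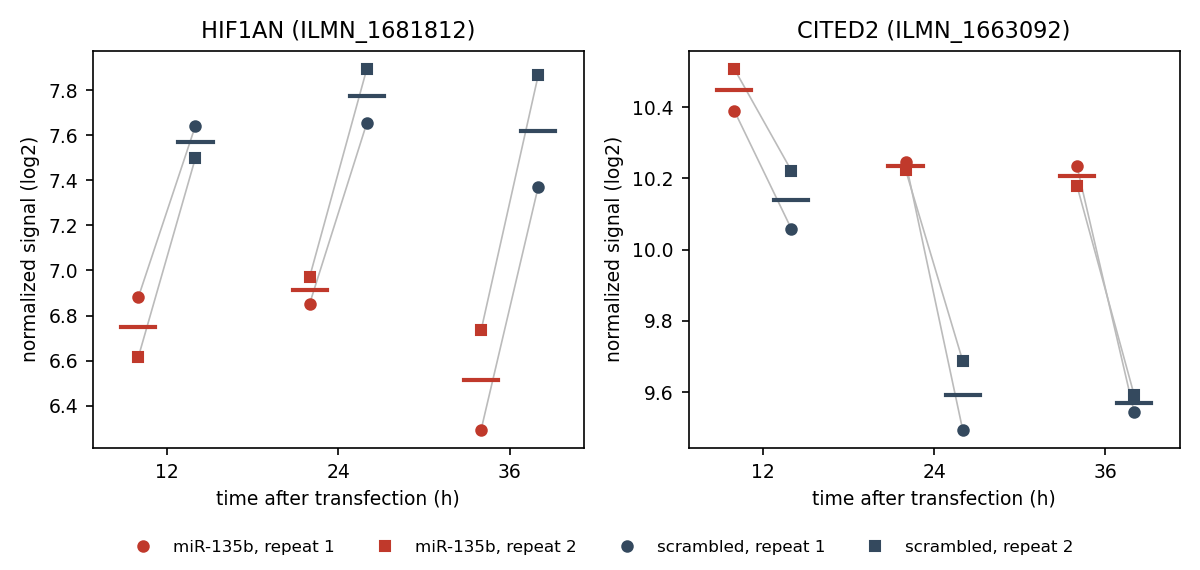
Normalized log2 signal of HIF1AN (left) and CITED2 (right) on each of the 12 arrays by hours after transfection, with miR-135b cells in red left of scrambled cells in blue at each time. Circles are repeat 1, squares repeat 2, short bars the mean of 2 repeats, and grey lines join the same repeat number. HIF1AN is lower in miR-135b cells in 6 of 6 pairs and CITED2 is higher in 6 of 6 pairs.

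Averaged over the 3 times, HIF1AN fell by 0.93 ± 0.12 on the log2 scale (SE, 95% interval -1.20 to -0.66), a 1.90-fold decrease (limma, Benjamini-Hochberg adjusted p = 0.00390 over all kept probes). The fall was present in 6 of 6 pairs, between -0.76 and -1.13. Of the 19161 probes, 22 had a lower value in this comparison, or 0.115%. The size was smaller, -0.61, where no background was corrected, and -0.60 on the log2 values the authors deposited, while the call was kept in all 11 alternatives and without any 1 of the 12 arrays.

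Each single time rests on 2 arrays against 2. HIF1AN fell by 1.10 ± 0.21 at 36 h (SE, 2.15-fold lower, adjusted p = 0.0497). The value was -0.82 ± 0.21 at 12 h (adjusted p = 0.763, unadjusted p = 0.00324) and -0.86 ± 0.21 at 24 h (adjusted p = 0.162). With the repeat number as a block within each time, HIF1AN passed at 24 h (adjusted p = 0.0309) and at 36 h (0.0176) and not at 12 h (0.191). Leaving out any 1 of the 12 arrays lost the call at 36 h, with values between -1.35 and -0.86 and adjusted p between 0.0817 and 0.301. Set against the effect at 12 h, that at 36 h differed by -0.28 ± 0.30 (adjusted p = 0.999, 95% interval -0.95 to 0.39), so a change in size over time was not shown.

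Ordered by level, HIF1AN averaged 6.51 ± 0.31 (SD, n = 2) in miR-135b cells at 36 h, 6.75 ± 0.19 at 12 h and 6.91 ± 0.08 at 24 h. It averaged 7.57 ± 0.10 in scrambled cells at 12 h, 7.62 ± 0.35 at 36 h and 7.77 ± 0.17 at 24 h. Neighbours in this order overlapped in range, apart from miR-135b cells at 24 h and scrambled cells at 12 h, whose means lay 0.66 apart. From 12 to 36 h the change was -0.24 ± 0.21 (SE) in miR-135b cells (adjusted p = 0.652) and 0.05 ± 0.21 in scrambled cells (adjusted p = 0.964).

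CITED2, the transactivator that competes with HIF-alpha for EP300 and CREBBP, moved the other way. The log2 signals of repeats 1 and 2 were 10.39 and 10.51 in miR-135b cells at 12 h, against 10.06 and 10.22 in scrambled cells. At 24 h they were 10.25 and 10.22 in miR-135b cells and 9.49 and 9.69 in scrambled cells. At 36 h they were 10.23 and 10.18 in miR-135b cells and 9.54 and 9.59 in scrambled cells. Within a time only 2 arrays stood against 2, and the share of all probes separated that way was not counted. Over all times the 2 treatments overlapped. The lowest miR-135b array, 10.18, lay just below the highest scrambled array, 10.22. The probe, ILMN_1663092, was detected on 12 of 12 arrays, with intensities between 787 and 1547.

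CITED2 rose by 0.53 ± 0.08 (SE, 95% interval 0.36 to 0.70) over the mean of the 3 times, or 1.44-fold (limma, adjusted p = 0.00614). It was higher in 6 of 6 pairs, by 0.29 to 0.75. The call was kept in all 11 alternatives, with values from 0.49 to 0.54, and without any 1 of the 12 arrays, with adjusted p from 0.0144 to 0.0265. At single times the values were 0.31 ± 0.13 at 12 h (adjusted p = 0.9997), 0.65 ± 0.13 at 24 h (0.0888) and 0.64 ± 0.13 at 36 h (0.0649). With the repeat block the 36 h value passed (adjusted p = 0.0445) and the 24 h value did not (0.0658).

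In time, CITED2 was highest at 12 h in both treatments. Its group means were 10.45 ± 0.08, 10.24 ± 0.02 and 10.21 ± 0.04 in miR-135b cells at 12, 24 and 36 h (SD, n = 2). In scrambled cells they were 10.14 ± 0.12, 9.59 ± 0.14 and 9.57 ± 0.03. The change from 12 to 36 h was -0.24 ± 0.13 (SE) in miR-135b cells (adjusted p = 0.428) and -0.57 ± 0.13 in scrambled cells (adjusted p = 0.232, unadjusted p = 0.00159). Neither passed, and the difference between them, 0.33 ± 0.19 (95% interval -0.09 to 0.75), did not pass either (adjusted p = 0.999).

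**Figure D2:**
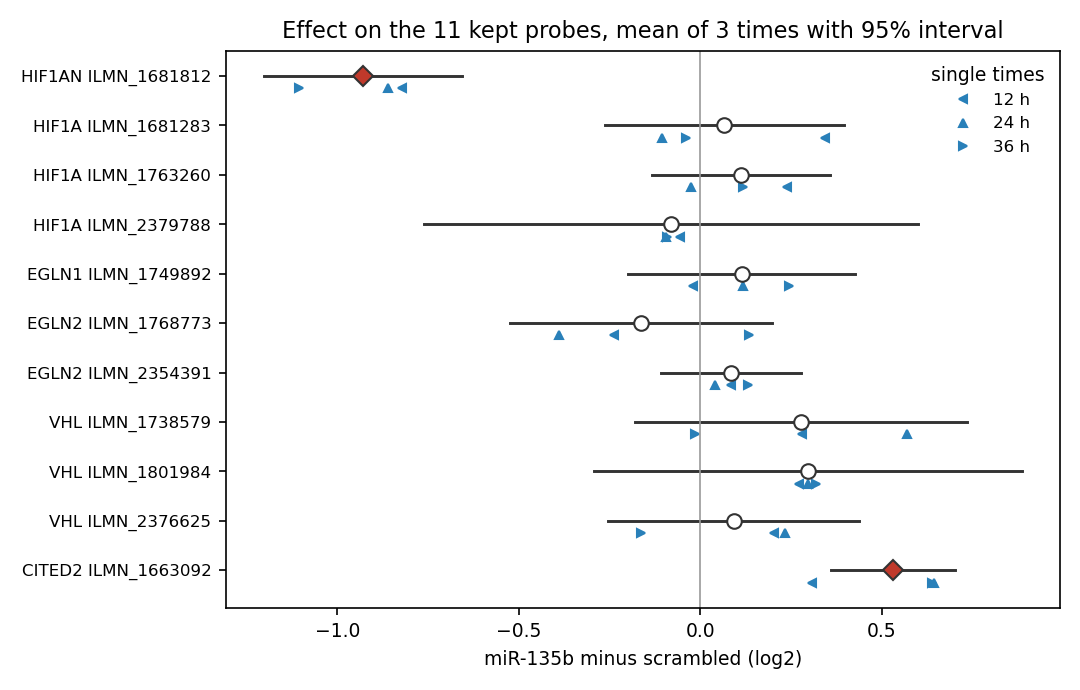
Difference miR-135b minus scrambled (log2) for each of the 11 kept probes of the HIF genes. Large symbols are the mean over 3 times with its 95% interval, red diamonds the 2 probes with adjusted p under 0.05, and small blue triangles the values at 12, 24 and 36 h. The intervals of HIF1AN (-1.20 to -0.66) and CITED2 (0.36 to 0.70) lie apart from 0, and those of the other 9 probes include it.

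HIF1AN and CITED2 were the 2 of 11 kept probes that passed in the mean over the 3 times, 1 lower and 1 higher, where 2.95% of all kept probes passed. With the repeat block 6.51% of all probes passed, and again 2 of the 11. At 12 h none of the 11 passed, as none of the 19161 did in limma with or without the repeat block (0% of probes, with 838 at an unadjusted p under 0.05). At 24 h none of the 11 passed, against 0.459% of all probes, and 1 passed with the block, against 0.892%. At 36 h 1 passed, against 0.919%, and 2 passed with the block, against 2.29%. The median difference of the 11 probes over the 3 times was 0.09, and that of all kept probes was 0.01.

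The oxygen-labile subunit HIF1A was read by 3 probes, and none of them passed. Probe ILMN_1763260 had log2 signals with a lowest, median and highest value of 7.45, 7.71 and 8.04 in miR-135b cells and 7.23, 7.62 and 7.83 in scrambled cells. Its difference over the 3 times was 0.11 ± 0.11 (SE, 95% interval -0.13 to 0.36, adjusted p = 0.743). Probe ILMN_1681283, annotated to the same transcript, read 5.99, 6.15 and 6.62 in miR-135b cells and 5.84, 6.07 and 6.68 in scrambled cells, a difference of 0.07 ± 0.15 (interval -0.26 to 0.40, adjusted p = 0.910). At 36 h its 2 pairs went opposite ways, at -0.69 and 0.61. Probe ILMN_2379788, annotated to another transcript, was near the detection limit, being detected on 4 of 6 miR-135b arrays and 4 of 6 scrambled arrays, and its interval was wide (-0.08 ± 0.30, -0.76 to 0.60, adjusted p = 0.955).

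The partner subunit and the second alpha subunit gave no level to compare. The ARNT probe was detected on 1 of 12 arrays, at a detection p of 0.00909, and its intensity had a median of 116 in miR-135b cells and 113 in scrambled cells. The EPAS1 probe was detected on none, with medians of 107 in miR-135b cells and 103 in scrambled cells. Array medians over all probes were 99.0 to 115, so these readings lie at the level of the typical probe. One probe stood for each gene, so other transcripts may have been missed.

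Among the prolyl hydroxylases, EGLN1, regarded as the main oxygen sensor, did not pass. Its log2 signal had a lowest, median and highest value of 7.14, 7.33 and 7.69 in miR-135b cells and 6.85, 7.29 and 7.48 in scrambled cells. The difference was 0.11 ± 0.14 (SE, 95% interval -0.20 to 0.43, adjusted p = 0.807), with the miR-135b array higher in 5 of 6 pairs. EGLN2, which is known to be induced by estrogen in breast cancer cells, had 2 probes annotated to different transcripts, and their values differed in sign. Probe ILMN_2354391 gave 0.08 ± 0.09 (interval -0.11 to 0.28, adjusted p = 0.753) and probe ILMN_1768773 gave -0.16 ± 0.16 (interval -0.52 to 0.20, adjusted p = 0.743). EGLN3, itself a gene that HIF induces in many cells, was detected on no array, with a median intensity of 103 in miR-135b cells and 100.004 in scrambled cells.

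VHL, the substrate-binding subunit of the ubiquitin ligase that takes up hydroxylated HIF-alpha, was read by 3 probes, none of which passed. Probe ILMN_1738579 had a lowest, median and highest log2 signal of 10.20, 11.19 and 11.36 in miR-135b cells and 10.33, 10.80 and 11.20 in scrambled cells. Its difference was 0.28 ± 0.20 (SE, 95% interval -0.18 to 0.74, adjusted p = 0.617). Probe ILMN_1801984 was higher in miR-135b cells in 6 of 6 pairs, by 0.02 to 0.62, at a mean of 0.30 ± 0.26 (interval -0.29 to 0.89, adjusted p = 0.701). Probe ILMN_2376625 gave 0.09 ± 0.15 (interval -0.25 to 0.44, adjusted p = 0.874).

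The repeats of VHL were far apart at 36 h, and for probe ILMN_1801984 also at 24 h, with an SD of 0.70 in miR-135b cells and 0.71 in scrambled cells. Probe ILMN_1738579 at 36 h read 11.36 in repeat 1 and 10.20 in repeat 2 of miR-135b cells, and 11.07 and 10.51 in scrambled cells. The SD between the miR-135b repeats at 36 h was 0.82, 0.82 and 0.63 for its 3 probes, against a median SD of at most 0.177 over all probes in any group. At 36 h repeat 2 was the lower one in both treatments and for all 3 probes. With the repeat block, the adjusted p of the VHL probes was still 0.129 to 0.510.

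**Figure D3:**
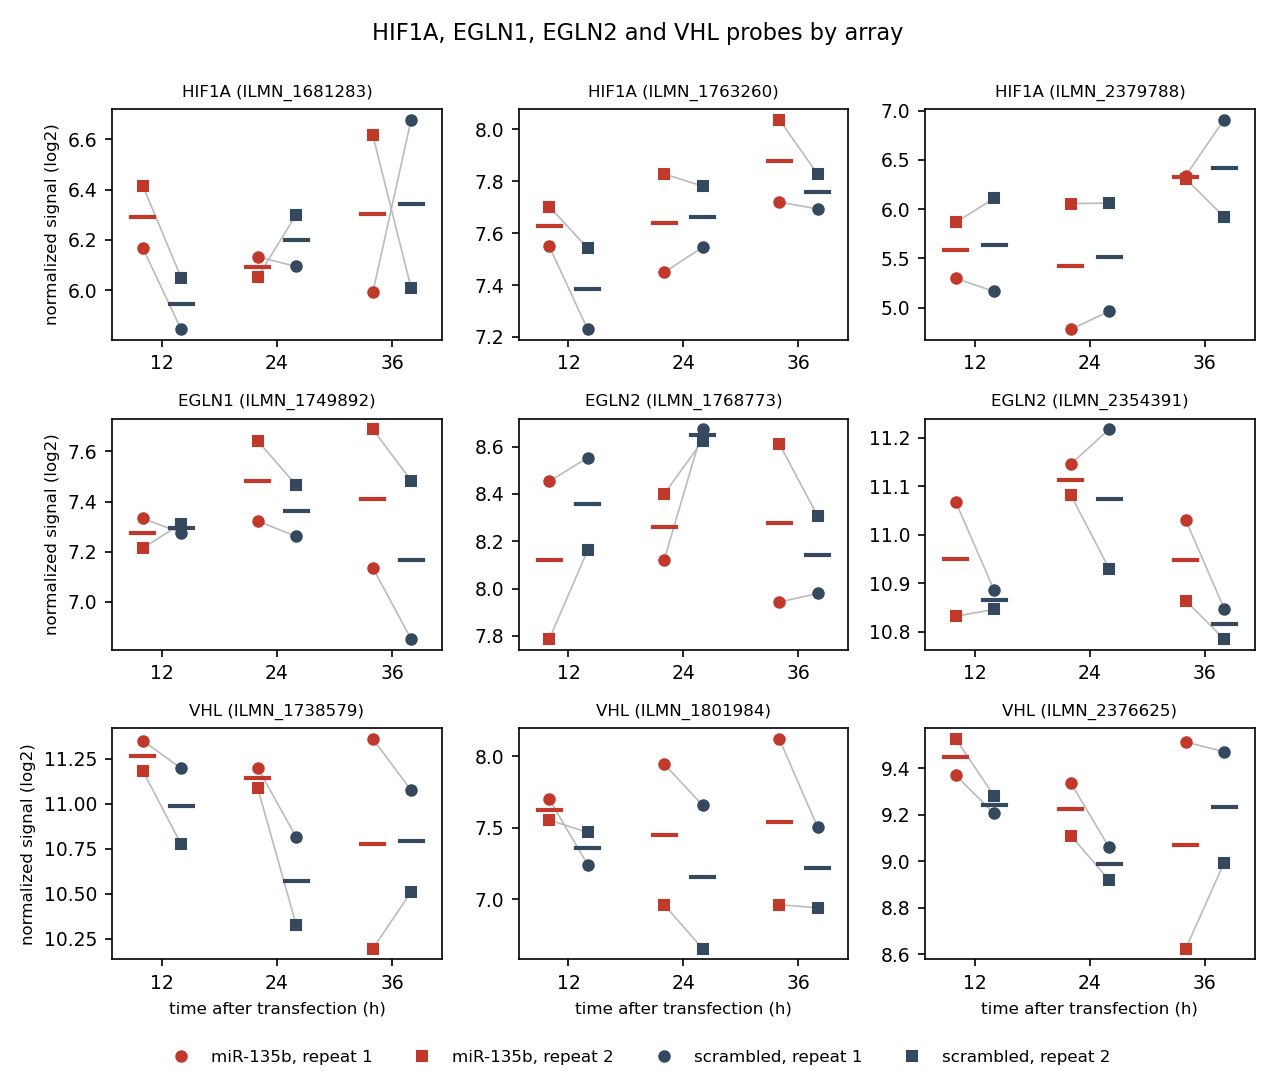
Normalized log2 signal of the 9 kept probes of HIF1A, EGLN1, EGLN2 and VHL on each array by hours after transfection, drawn as for HIF1AN and CITED2, each panel with its own scale. Red symbols are miR-135b cells and blue symbols scrambled cells, and each probe's treatments overlap in range over the 12 arrays. In the VHL panels repeat 2 of miR-135b cells at 36 h (10.20 for ILMN_1738579) lies well below repeat 1 (11.36).

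None of the 11 probes passed for the change of the effect between 12 and 36 h, nor did any of the 19161 (0% in limma with or without the block, with 933 at an unadjusted p under 0.05). For time itself, 36 h against 12 h, none of the 11 passed in miR-135b cells, against 0.0678% of all probes, or in scrambled cells, against 0.0104%. The widest of these values belonged to the dim HIF1A probe ILMN_2379788, at 0.74 ± 0.53 (SE) in miR-135b cells and 0.78 ± 0.53 in scrambled cells. The brighter HIF1A probe ILMN_1763260 had 0.25 ± 0.19 in miR-135b cells and 0.37 ± 0.19 in scrambled cells.

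The proteins that work with these 9 genes were described through lists of further genes, each by its counts over kept probes in the mean over the 3 times, where 1.72% of all probes fell and 1.23% rose. The VHL ligase partners ELOB, ELOC, CUL2, RBX1, NEDD8 and VBP1 all had kept probes, 10 in number. None passed, and the median was -0.03. The largest values were -0.27 ± 0.11 (SE) for RBX1, the RING subunit, and -0.15 ± 0.07 for an ELOC probe, one of the elongins that bind VHL (adjusted p = 0.308 and 0.344).

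Of 8 other HIF subunits and coactivators, 7 had kept probes, HIF3A being detected on no array. Of their 10 probes 2 fell, none rose and 8 did not pass, with a median of -0.09. NCOA1, a nuclear receptor coactivator that also acts with HIF1A, averaged a log2 signal of 9.34 in miR-135b cells and 9.89 in scrambled cells, a fall of 0.55 ± 0.09 (SE, adjusted p = 0.0107). Its second kept probe, detected on 9 arrays, gave -0.34 ± 0.15 (adjusted p = 0.334). ARNT2, a close relative of ARNT that can also pair with HIF-alpha, averaged 5.95 in miR-135b cells and 6.44 in scrambled cells, a fall of 0.49 ± 0.11 (adjusted p = 0.0438). The ARNT2 call was lost without 11 of the 12 arrays in turn, all but repeat 2 of miR-135b cells at 36 h (adjusted p = 0.0194 to 0.135), and the value was -0.24 on the authors' deposited log2 values (adjusted p = 0.0712). The ARNT2 call was also lost where no background was corrected (-0.24, adjusted p = 0.0716) and without the detection filter (adjusted p = 0.0660). EP300 and CREBBP, whose contact with HIF1A HIF1AN blocks, gave -0.10 ± 0.14 for EP300 and -0.12 ± 0.12 and 0.07 ± 0.09 for CREBBP.

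Of 21 other regulators of HIF-alpha stability, 16 had kept probes, 26 in all. One fell, 25 did not pass, and the median was 0.08. The probe that fell belonged to SIAH1, a ubiquitin ligase that degrades prolyl hydroxylases, with means of 9.14 in miR-135b cells and 9.61 in scrambled cells, a fall of 0.48 ± 0.10 (SE, adjusted p = 0.0381). The other 3 SIAH1 probes gave -0.41, -0.28 and -0.17, and the mean of its probes gave -0.33 (adjusted p = 0.142). Without the detection filter the SIAH1 probe that fell did not pass (adjusted p = 0.0536). The SIAH1 call was lost without 10 of the 12 arrays in turn, all but repeat 1 of miR-135b cells at 24 h and repeat 2 of scrambled cells at 12 h (adjusted p = 0.0358 to 0.113). With the repeat block, under which 3.64% of all probes fell and 2.88% rose, 2 probes of the list fell, both of SIAH1, and 1 rose. The one that rose belonged to P4HTM, a membrane-bound prolyl hydroxylase able to act on HIF-alpha, at 0.32 ± 0.07 (adjusted p = 0.0539, with the block 0.0344). The other P4HTM probes gave 0.28 and 0.25. The P4HTM probe that rose passed in 8 of 10 alternatives, the block included (adjusted p = 0.0217 to 0.0627 over the 10). SIAH2, the relative of SIAH1 with the same role, gave -0.30 ± 0.13 (adjusted p = 0.315).

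Proteins with ankyrin repeats are also hydroxylated by HIF1AN, and 8 of 11 genes of reported substrates had kept probes. None of the 9 probes passed, and the median was 0.08. The largest values were 0.31 ± 0.08 (SE) for NOTCH1 (adjusted p = 0.0915) and -0.18 ± 0.08 for NOTCH2 (adjusted p = 0.353), both membrane receptors whose inner part holds such repeats. NOTCH1 passed in 3 of 11 alternatives, on the authors' deposited log2 values, where no background was corrected and in the additive model (adjusted p = 0.0446, 0.0445 and 0.0494).

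The transcriptional output of HIF was read through reported target genes, of which 34 of 43 had kept probes. Of 50 probes 1 fell, 49 did not pass, and the median was 0.01, the same as that of all probes. The 9 HIF genes were left out of this list, EGLN3 and CITED2 among them. The rise of CITED2 (0.53) therefore lies outside these counts. VEGFA, the vascular growth factor, gave 0.06 ± 0.16 and 0.04 ± 0.16 (SE) with its 2 probes. The glucose transporter SLC2A1 gave -0.02 ± 0.10, the mitophagy gene BNIP3 0.00 ± 0.08, NDRG1 0.07 ± 0.16 and ANKRD37 0.03 ± 0.11. Other targets lay further from 0 in both directions without passing. ERO1A gave -0.25 ± 0.08 and a PGK1 probe -0.22 ± 0.09, while an MXI1 probe gave 0.30 ± 0.21 and a P4HA2 probe 0.23 ± 0.09. This MXI1 probe was detected on 3 arrays. The other kept probes of these genes gave 0.05 for PGK1, 0.04 and 0.23 for MXI1 and 0.13 for P4HA2. Of the 50 probes 23 lay below 0. The probe that fell was that of GBE1, the glycogen branching enzyme, with means of 7.90 in miR-135b cells and 8.56 in scrambled cells (-0.66 ± 0.09, adjusted p = 0.00623). With the repeat block 4 of the 50 probes fell, against 3.64% of all probes, adding both probes of CA12, a carbonic anhydrase, at -0.40 and -0.54, and that of the lipoprotein receptor VLDLR at -0.36. The medians at 12, 24 and 36 h were -0.00, 0.00 and 0.06, and no probe of these lists passed at a single time.

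**Figure D4:**
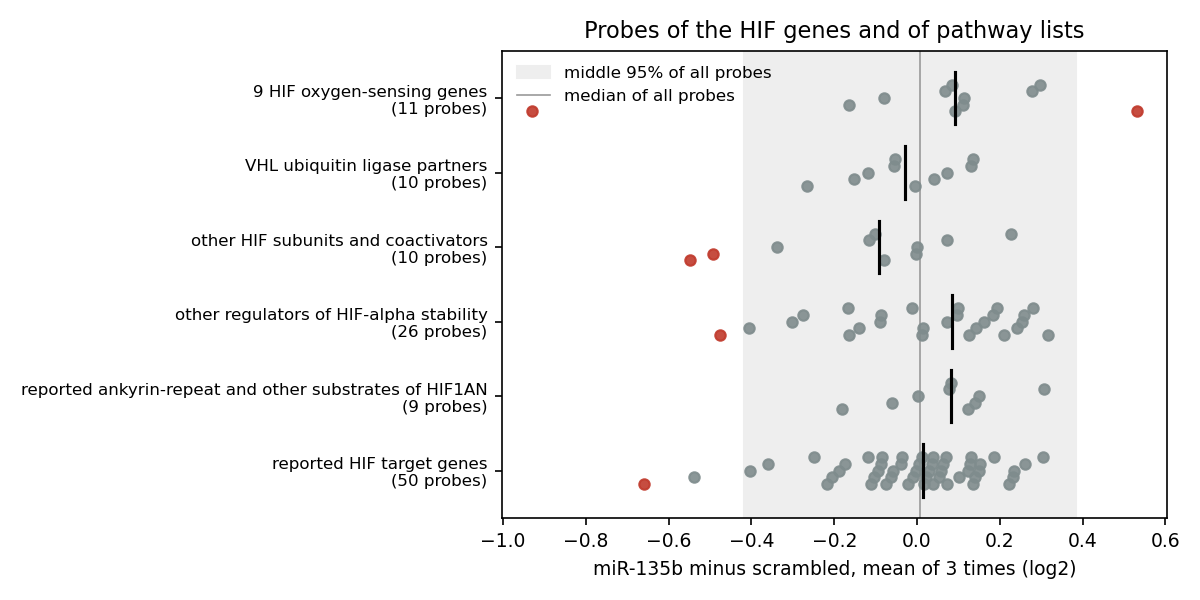
Difference miR-135b minus scrambled (log2, mean over 3 times) of each kept probe of the 9 HIF genes and of the 5 lists of related genes. Each point is a probe, red where the adjusted p is under 0.05, black bars are list medians, the grey line is the median of all kept probes (0.01) and the shaded band holds their middle 95% (-0.42 to 0.38). HIF1AN at -0.93 and CITED2 at 0.53 lie outside the band, and most list probes lie inside it.

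Fewer transcripts per cell and fewer cells with the transcript cannot be told apart in RNA of whole cultures. Of the 12 luminal marker probes 1 fell, where 1.72% of all kept probes did, and the list median was -0.09. The probe that fell was that of ACP3, prostatic acid phosphatase (-0.78 ± 0.12, SE, adjusted p = 0.00980). Of 6 leukocyte markers CD14 and CD68 had kept probes. One of 3 CD68 probes fell (-0.79 ± 0.10, adjusted p = 0.00377) and the others gave -0.10 and -0.44. The CD68 call was lost with the mean of its probes (-0.44, adjusted p = 0.0580). Among single times, the CD68 probe that fell passed at 24 h (-1.19, adjusted p = 0.0307). The part of these markers in the HIF results was not tested.

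The genes whose level followed that of HIF1AN most closely over the 12 arrays were KIF23, a mitotic kinesin, at a Pearson r of 0.956, OAS3, an interferon-induced antiviral enzyme, at 0.956, ARHGAP19 at 0.950, CASZ1 at 0.947 and NCLN at 0.947. The arrays share the treatment contrast, so these correlations largely describe genes that are low on the same 6 arrays. After removal of group means r was 0.63 to 0.83. These genes were picked by r on the same arrays, and arrays of the same repeat number deviated together over kept probes. The r that remained is therefore no separate evidence of shared variation with HIF1AN. Over the 3 times KIF23 differed by -0.69, OAS3 by -0.78, ARHGAP19 by -0.80, CASZ1 by -0.40 and NCLN by -0.84. Among the HIF genes, r with HIF1AN was -0.75 for CITED2, -0.56 to -0.38 for the VHL probes, 0.51 and -0.21 for those of EGLN2, 0.05 for EGLN1 and -0.21 to -0.11 for those of HIF1A.

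HIF binds the letters ACGTG or GCGTG, and windows of 300 bases around the transcription start, 250 before and 50 after it, were searched for them on both strands. RefSeq windows on GRCh38.p14 existed for 8 of the 9 genes, 12 windows in all, VHL having none. A match was found in 7 of the 12 windows, in CITED2, EGLN1, EGLN2, EPAS1 and HIF1A. Of 35116 windows of all genes 48.4% held a match, so such a match is common. The CITED2 window farthest upstream is shown because CITED2 rose and its match is readable from both strands, the 2 matches overlapping in the letters in capitals. It lies at chr6:139374599-139374898 on the minus strand.
CITED2: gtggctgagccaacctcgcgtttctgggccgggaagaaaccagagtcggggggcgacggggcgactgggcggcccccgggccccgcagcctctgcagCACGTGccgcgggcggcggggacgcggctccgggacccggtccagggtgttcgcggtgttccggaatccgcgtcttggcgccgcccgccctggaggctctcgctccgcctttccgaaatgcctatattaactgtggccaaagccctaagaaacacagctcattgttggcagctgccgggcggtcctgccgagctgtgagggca
These letters do not show that HIF was bound there in LNCaP cells, which was not measured.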

How the data were processed

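Per the file headers, one deposited table gives linear signal intensity, not normalized, with a detection p-value beside it, for 47323 probes on 12 arrays. A second deposited table holds the authors' log2 values of the same arrays, whose columns share a median of 6.736 and follow log2 of the intensities with slopes of 0.962 to 1.03, without centring per gene. The sources used here do not say whether the authors corrected background. GenomeStudio 2010.2 and lumi 1.8.3 are named, without roles, in the submitters' processing notes.

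The intensities were background corrected with normexp in limma 3.58.1 (R 4.3.3), with control levels inferred from detection p, an offset of 16, quantile normalization and log2. Background correction widens fold changes and the offset narrows those of dim probes. Probes detected at p under 0.01 on at least 2 arrays were kept, and probes were named through the platform annotation, which gives 30113 probes 1 gene name, 8 several and 17202 none. All kept probes were fitted with lmFit and eBayes on 6 group means (6 residual degrees of freedom), with two-sided tests and Benjamini-Hochberg adjustment over all kept probes at 0.05. The number of arrays, 2 per group, limits precision. The fit was checked on simulated data whose noise was independent between arrays. The check therefore does not cover arrays that deviate together.

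Arrays of the same repeat number and time deviated together from their group means, at correlations of 0.44, 0.44 and 0.55 over kept probes, above a limit of 0.1. The numbers were therefore taken to pair treatments within a time, and a fit with that block (3 residual degrees of freedom) is given beside results it changes. The block gives no contrast between times within a treatment, though it does give the change of the effect between 12 and 36 h. Alternatives covered normalization, background, filters, probe choice, the arrays fitted, the block and leaving out each array.

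The HIF genes and lists were chosen with earlier results of these data known. All kept probes of the 9 genes are named. In the lists, genes with a probe past the threshold, or else the 2 largest values, are named. The other list genes were named for their roles or the size of their value, after values were seen. The 5 genes of highest r to HIF1AN are named.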

Additional observations from a re-analysis of the deposited data

Results flagged for a closer look

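The ARNT probe ILMN_1762582, outside the comparisons because too few arrays detected it, was detected on 1 array of miR-135b cells and on no array of scrambled cells. Its intensity was between 98.5 and 126 in miR-135b cells and between 109 and 117.5 in scrambled cells, so the groups overlapped, and 1 array allows no statement on its level.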

How the results depend on the processing

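The fall of HIF1AN and the rise of CITED2 in the mean over 3 times kept direction and call in all 11 alternatives and without any 1 of 12 arrays. HIF1AN ranged from -0.93 to -0.60 over the alternatives and from -1.01 to -0.85 without 1 array. CITED2 ranged from 0.49 to 0.54 over the alternatives and from 0.50 to 0.56 without 1 array, and 2 HIF probes passed in each case. At 24 h HIF1AN passed with the replicate block within each time (-0.86, adjusted p = 0.0309), which gave 1 HIF probe passing. One HIF probe, CITED2, also passed at 24 h with the authors' values, without background correction and among probes detected on all 12 arrays. At 36 h 2 HIF probes, HIF1AN and CITED2, passed with the authors' values, without background correction, with an offset of 50, among probes detected on all 12 arrays, with 1 probe or the mean of probes per gene, and with either replicate block. At 36 h 0 HIF probes passed without the detection filter, where HIF1AN was -1.10 (adjusted p = 0.0749), with the arrays of that time alone, where it was -1.10 (adjusted p = 0.469), and without any 1 array (0 to 0 probes, HIF1AN -1.35 to -0.857). Leaving out 1 array moved the time change of HIF1AN in scrambled cells between -0.201 and 0.294. Over all probes, 475 to 1248 passed in the mean, the most with the replicate block, and 299 to 474 without 1 array. At 12 h 0 to 10 and at 36 h 0 to 438 passed, and 0 with the arrays of that time alone. The block changed no other call of a HIF gene than HIF1AN at 24 h and CITED2 at 36 h. No value that passed changed sign. Some that did not pass did, for example where the mean of a gene's kept probes replaced the single probe. Over the 3 times that mean was -0.04 for EGLN2, against 0.08 for ILMN_2354391, and 0.03 for HIF1A, against -0.08 for ILMN_2379788. At 36 h it was 0.05 for VHL, against -0.16 for ILMN_2376625. The headers name no slides, so a slide block was not run.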
